A study of Macaca mulatta with 25 samples.

Results

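ALDH1A3, STRA6, RARA and AOX1 are genes of vitamin A metabolism and retinoic acid signalling, and their transcripts were followed here in the rhesus macaque cervix over an artificial hormone cycle. They were picked out by symbol, but with earlier results of these data known, so their calls and ranks below are no independent evidence. They are 4 of the 15534 genes that the array lists under a single symbol, and each was read by 1 probe set. The animals were 25 ovariectomized adult rhesus macaques that all carried an estradiol implant under the skin. Frozen cervix gave total RNA that was amplified, labelled with biotin and hybridised to a whole-transcript rhesus array, 1 array per animal. The E2 group, killed in the proliferative phase of the cycle, had estradiol alone for 14 days. The other groups carried progesterone implants as well, which had been in place for 1 day in E+1P and 3 days in E+3P. In E+7P they had been in place for 7 days and in E+14P for 14 days. Each group held 5 animals by the labels of the arrays, whereas the design text gives 13, 4, 5, 5 and 10 animals in the same order. The labels do not say how long estradiol had been given in the progesterone groups, so days of estradiol and days of progesterone cannot be told apart. No animal without hormone was included, and every value below is relative to estradiol alone or to another progesterone time.

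Vitamin A circulates as retinol on the carrier RBP4, and STRA6 is the membrane receptor that passes retinol from this carrier into cells. Inside the cell RDH10 oxidises retinol to retinaldehyde, DHRS3 turns retinaldehyde back into retinol, and enzymes of the ALDH1A family, ALDH1A3 among them, make retinoic acid in a step that is not reversed. Retinoic acid acts through the receptors RARA, RARB and RARG, which sit on DNA paired with an RXR and recruit corepressors or coactivators, and CYP26 enzymes destroy it. RARB, DHRS3, CYP26A1 and STRA6 are themselves well known targets of retinoic acid. AOX1 is aldehyde oxidase, an enzyme with a molybdenum cofactor that oxidises aldehydes and many drugs, and rabbit and mouse enzymes of its family oxidise retinaldehyde in the test tube. In rodents, lack of vitamin A turns the columnar lining of the endocervix into squamous epithelium.

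The deposited values are log2 signals, so a difference of 1 is a doubling. Array medians lay between 5.502 and 5.604. Precision is limited by the number of arrays, 5 in each group. The hormone labels were read against known progesterone responses. FKBP5, a progestin target, was higher than in E2 by 2.39, 2.06, 1.50 and 1.58 from E+1P to E+14P, and PGR, the progesterone receptor gene, was lower at each time (-1.10, -1.56, -1.17 and -0.76), all called. The last PGR call was lost without E2 replicate 1, 2, 4 or 5 or E+14P replicate 1, 4 or 5 (highest adjusted p = 0.0941), and also when the arrays that stand apart were left out (0.062). ESR1, the estrogen receptor gene, was lower at E+1P (-0.92, adjusted p = 0.014) and E+3P (-0.79, 0.0177). The E+3P call was lost without E+3P replicate 2 (0.0515), with 3 makeup covariates (-0.33, 0.317) and with a smooth muscle covariate (-0.52, 0.0917). It was also lost with only the compared groups in the model (0.13) and without the arrays that stand apart (-0.52, 0.112). ESR1 was not called at E+7P (-0.21, 0.663) or E+14P (-0.38, 0.361). The mean log2 signal of a marker list per array served as a description of tissue makeup. Columnar epithelium markers (20 of 21 measured) lay between 5.50 and 8.28, smooth muscle markers (14 of 16) between 5.72 and 9.16 and squamous epithelium markers (14 of 24) between 4.60 and 10.32, while 6 of 7 endometrial markers had means between 4.89 and 6.18. The files used here hold no detection calls, so presence of a cell type was not decided. The arrays E+3P replicates 2 and 3 and E+14P replicate 4 lay more than 4 scaled median absolute deviations away from the middle array in a squamous, columnar or ciliated list and are said to stand apart.

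Differences were tested with limma over all 40489 probe sets, with p values adjusted by Benjamini and Hochberg, and a gene is called where the adjusted p is below 0.05. All comparisons with estradiol alone share the same E2 arrays. In these comparisons ALDH1A3, AOX1 and RARA were called at all 4 progesterone times, ALDH1A3 and AOX1 higher and RARA lower. Of all probe sets, 0.173% were called higher and 0.328% lower at all 4 times. STRA6 was called higher at E+1P, where it peaked, and lower at E+7P. Asked whether a gene differed from E2 at any time, limma called 8.87% of all probe sets by its F test, with an adjusted p of 1.98e-06 for STRA6, 0.000161 for ALDH1A3, 0.00398 for AOX1 and 0.0165 for RARA.

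STRA6, the retinol receptor (probe set 13781286), had log2 signals of 6.13, 6.08, 6.11, 6.49 and 6.30 in the E2 arrays, given throughout in the order of replicates 1 to 5. After 1 day of progesterone the signals were 8.08, 7.93, 8.09, 7.55 and 7.83. The lowest E+1P array exceeded the highest E2 array, so the groups did not overlap. After 3 days the animals split, with 5.50, 5.63 and 5.56 in replicates 1 to 3 and 6.69 and 6.92 in replicates 4 and 5. The former lay below every E2 array and the latter above every E2 array. At E+7P the signals were 5.52, 5.66, 5.33, 5.54 and 5.22, and at E+14P they were 5.42, 5.39, 5.62, 5.93 and 5.94. Both late groups lay wholly below E2.

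The rise of STRA6 at E+1P was 1.67 on the log2 scale (SE 0.22, adjusted p = 1e-04, limma), which is 3.19-fold, from 6.22 ± 0.17 to 7.90 ± 0.22 (mean ± SD, n = 5 per group). At E+1P 1.39% of all probe sets were called higher, and 3.1% had all 5 arrays above those of E2. STRA6 then fell from its peak by 1.84 at E+3P (SE 0.22, adjusted p = 2.85e-05), by 2.44 at E+7P (adjusted p = 5.38e-07) and by 2.24 at E+14P (adjusted p = 1.73e-06), and in each case all 5 later arrays lay below every E+1P array. The share of all probe sets called lower than at E+1P was 3.01%, 1.53% and 2.01% at these times, and the share without overlap 2.67%, 3.27% and 3.23%. The fall from E+1P to E+7P was the 24th largest of all 40489 probe sets. In the order of levels, E+1P stood first, followed by E2 at 6.22, E+3P at 6.06 ± 0.68, E+14P at 5.66 ± 0.27 and E+7P at 5.45 ± 0.18.

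Between these lower groups STRA6 differed less clearly. E+3P minus E2 was -0.16 (95% interval -0.62 to 0.29, adjusted p = 0.669) and was an average over animals on both sides of E2. E+7P lay below E2 by -0.77 (SE 0.22, adjusted p = 0.0473), where 2.36% of all probe sets were called lower and 3.25% lay wholly below. E+14P lay below E2 by -0.56 (95% interval -1.02 to -0.11), which was not called (adjusted p = 0.176), with all 5 arrays below every E2 array against 2.66% of probe sets. Among the neighbours in the order, E+3P and E+14P (-0.40, 95% interval -0.85 to 0.05) and E+14P and E+7P (0.21, 95% interval -0.25 to 0.66) did not differ beyond their spread. The E+7P call was narrow. It was lost without any 1 of the 10 E2 and E+7P arrays, and also without E+1P replicate 1, 2, 3 or 5 or E+14P replicate 1, 2, 3 or 4, with changes between -0.82 and -0.70 and a highest adjusted p of 0.123. It was also lost without a mean trend of the variances (0.0514), with a squamous covariate (0.0551) and with 3 makeup covariates (-0.65, 0.0611).

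**Figure D1:**
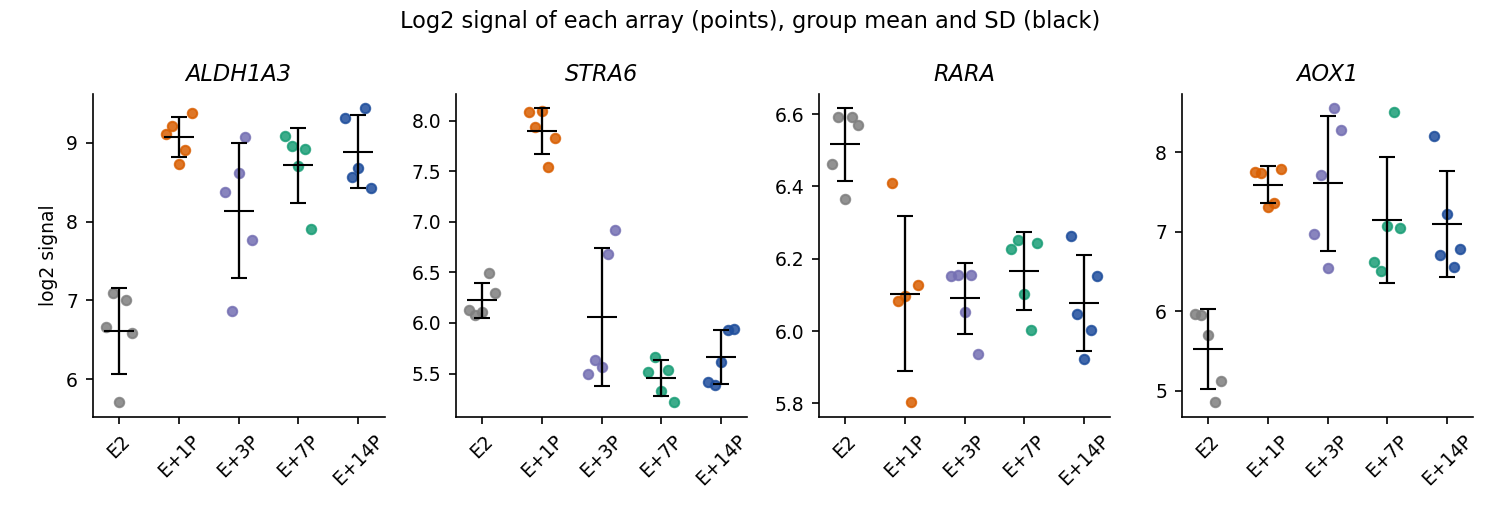
Log2 signal of ALDH1A3, STRA6, RARA and AOX1 in each array (points), with group mean and SD in black, for the 5 groups of 5 animals. STRA6 stands high at E+1P (7.55 to 8.09) and its E+3P arrays split into 5.50 to 5.63 and 6.69 to 6.92, whereas the ALDH1A3 and AOX1 arrays of the progesterone groups lie above E2 with the exception of 1 ALDH1A3 array at E+3P.

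The split of STRA6 at E+3P ran beside tissue makeup. The columnar epithelium mean was 7.02, 5.50 and 6.43 in the 3 animals with low STRA6 and 8.13 and 7.71 in the 2 with high STRA6. The smooth muscle mean was 9.15, 9.16 and 8.18 against 7.25 and 6.41. At E+7P replicates 3, 4 and 5 had columnar means of 7.89, 7.77 and 7.88 with STRA6 at 5.33, 5.54 and 5.22. The part of tissue makeup in the split was not tested. In cervix tissue of mixed cell types, fewer cells of a type and less RNA per cell cannot be told apart. With the squamous, columnar and smooth muscle means as covariates the fall from E+1P was -1.36 at E+3P (adjusted p = 0.00868), -2.26 at E+7P (adjusted p = 3.4e-06) and -1.95 at E+14P (adjusted p = 2.05e-05). Leaving out the 3 arrays that stand apart gave -1.53, -2.44 and -2.30, and all were called. The change from E2 to E+3P had no stable direction, at 0.24 with the 3 covariates and 0.14 without those arrays.

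**Figure D2:**
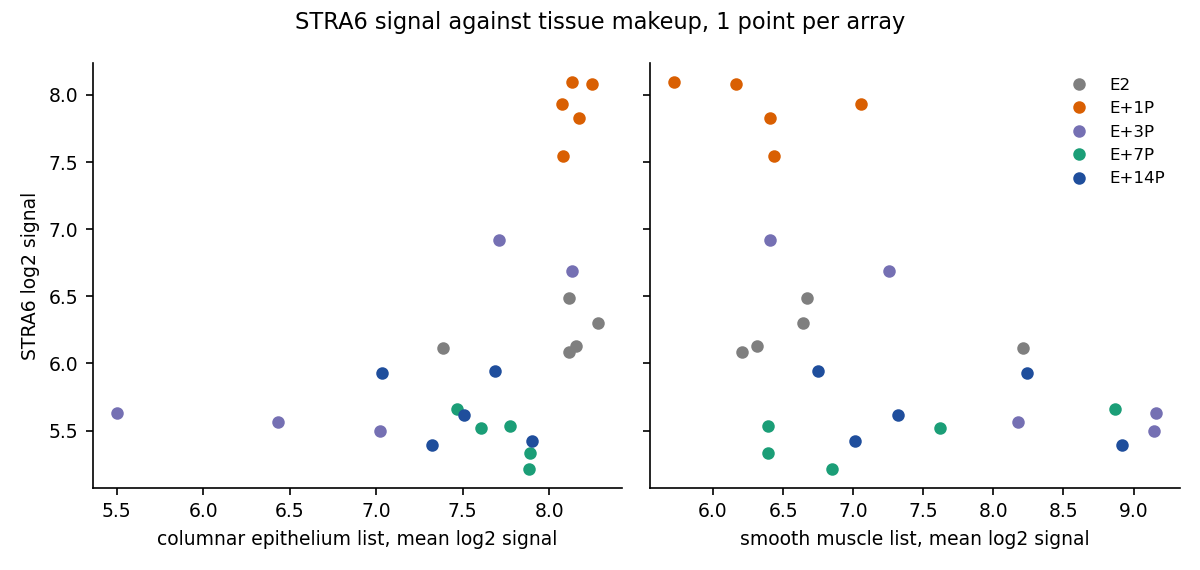
STRA6 log2 signal against the mean log2 signal of the columnar epithelium markers and of the smooth muscle markers, 1 point per array, coloured by group. The E+1P points (7.55 to 8.09, columnar means 8.07 to 8.24) lie above the E2 points (6.08 to 6.49, columnar means 7.39 to 8.28). The E+7P points stay at or below 5.66.

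ALDH1A3 makes retinoic acid from retinaldehyde, and it had the largest rise of the 4 genes at E+1P (probe set 13774001). Its E2 signals were 6.66, 7.09, 5.71, 7.00 and 6.58. After 1 day of progesterone they were 9.11, 9.22, 8.73, 8.91 and 9.38, well clear of E2. The E+3P arrays were wider apart, at 8.37, 6.86, 8.61, 9.08 and 7.77. Replicate 2, the array with the lowest columnar mean of all 25, was the only progesterone array within the range of E2. Replicate 3 of E+3P also had a low columnar mean, 6.43, with ALDH1A3 at 8.61, while replicate 5 had 7.71 with ALDH1A3 at 7.77. The part of tissue makeup in these values was not tested. The E+7P signals were 9.09, 8.96, 8.71, 8.92 and 7.90 and the E+14P signals 9.32, 8.56, 8.68, 9.44 and 8.42, all above every E2 array.

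The level of ALDH1A3 went from 6.61 ± 0.55 in E2 to 9.07 ± 0.26 at E+1P, a change of 2.46 (SE 0.33, adjusted p = 0.000141, limma) or 5.51-fold, the 20th highest of all 40489 probe sets. It was 1.53 above E2 at E+3P (adjusted p = 0.00625), 2.11 at E+7P (adjusted p = 0.000718) and 2.28 at E+14P (adjusted p = 0.00038). At E+7P and E+14P these were the 9th and 12th highest changes of all probe sets. Called higher were 5.07% of all probe sets at E+3P, 1.83% at E+7P and 1.48% at E+14P, and 3.47% and 2.55% lay wholly above E2 at E+7P and E+14P. All 4 calls held when any 1 of the 25 arrays was left out, with changes between 1.30 and 2.58. When E+3P and E2 were fitted by themselves the rise was not called (adjusted p = 0.0726), and with 3 makeup covariates it was 2.06 (adjusted p = 0.00178).

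In the order E+1P, E+14P (8.88 ± 0.46), E+7P (8.71 ± 0.48) and E+3P (8.14 ± 0.86), no neighbouring levels of ALDH1A3 differed beyond their spread, and only the step from E+3P down to E2 was called. E+14P minus E+1P was -0.19 (95% interval -0.87 to 0.50) and E+7P minus E+3P was 0.58 (-0.11 to 1.26). The dip from E+1P to E+3P was -0.93 (95% interval -1.61 to -0.25, adjusted p = 0.105), with 4 of 5 E+3P arrays below every E+1P array. It was called without E+3P replicate 4 (-1.17, adjusted p = 0.0403) and was -0.35 with 3 makeup covariates (adjusted p = 0.727). STRA6 and ALDH1A3 thus rose together at E+1P, and at E+7P and E+14P STRA6 lay below E2 while ALDH1A3 stayed above it. The STRA6 difference from E2 was called narrowly at E+7P (-0.77, adjusted p = 0.0473) and not at E+14P (-0.56, 0.176).

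**Figure D3:**
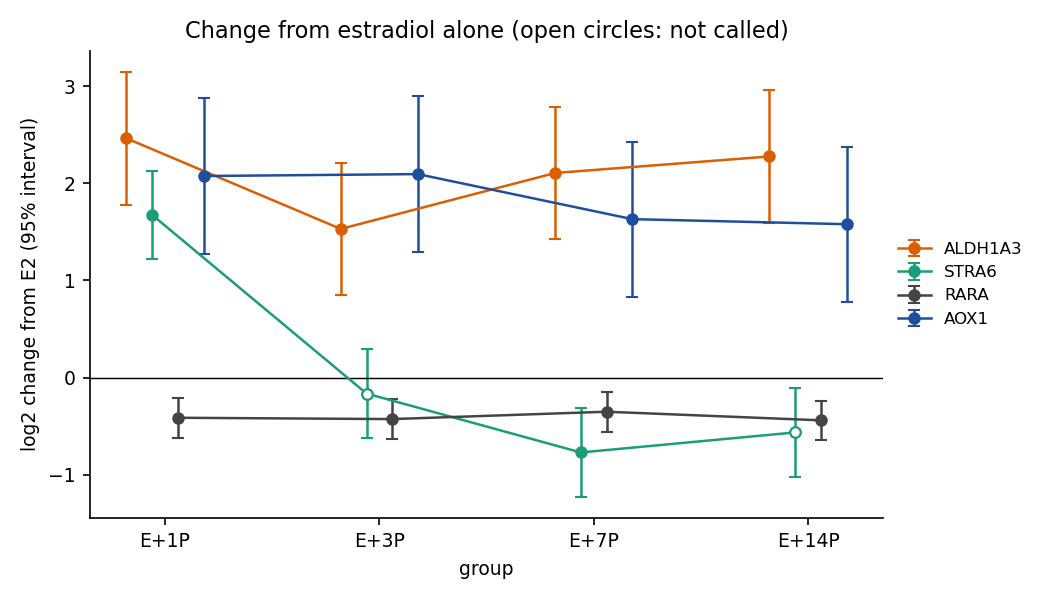
Log2 change from estradiol alone with its 95% interval for the 4 genes at each progesterone time (filled points called, open points not called). ALDH1A3 (1.53 to 2.46) and AOX1 (1.58 to 2.09) stay above 0 and RARA (-0.44 to -0.35) below it, while STRA6 goes from 1.67 at E+1P to -0.77 at E+7P.

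AOX1, aldehyde oxidase (probe set 13631021), had E2 signals of 5.96, 5.96, 5.70, 4.85 and 5.13. At E+1P they were 7.75, 7.75, 7.32, 7.36 and 7.79. The E+1P arrays were close together and far above E2. At E+3P the signals were 6.97, 7.71, 6.54, 8.56 and 8.28, at E+7P 6.62, 6.51, 7.07, 8.51 and 7.04, and at E+14P 8.21, 6.71, 7.23, 6.56 and 6.78. Every progesterone array lay above every E2 array, and the later groups spread more widely than E+1P, each with 1 or 2 arrays above 8. The 2 high E+3P arrays, replicates 4 and 5, were also those with high STRA6. The later AOX1 arrays above 8, E+7P replicate 4 and E+14P replicate 1, had STRA6 at 5.54 and 5.42, below every E2 array.

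AOX1 rose from 5.52 ± 0.50 in E2 to 7.59 ± 0.23 at E+1P, by 2.07 (SE 0.39, adjusted p = 0.00313, limma) or 4.21-fold. The rise was 2.09 at E+3P (adjusted p = 0.00218), the 16th highest of all probe sets, 1.63 at E+7P (adjusted p = 0.016) and 1.58 at E+14P (adjusted p = 0.0217). At E+3P, 3.94% of all probe sets lay wholly above E2. In the order E+3P (7.61 ± 0.85), E+1P, E+7P (7.15 ± 0.80) and E+14P (7.10 ± 0.67), neighbours differed by at most 0.44 and none of the differences between progesterone times was called. Between the 3 later times almost nothing was called over the whole array, 0.00494% of probe sets for E+7P minus E+3P, and 0% for E+14P minus E+3P and E+14P minus E+7P, where 4816 and 1729 had an unadjusted limma p under 0.05. Their intervals were wide, for example -1.31 to 0.28 for E+14P minus E+3P. The E+7P call was lost without E2 replicate 4 (adjusted p = 0.0544), and the E+14P call without E2 replicate 4 or 5 or E+14P replicate 1 (changes from 1.30, highest adjusted p = 0.0684). With 3 makeup covariates the rise was 2.64 at E+3P and 2.02 at E+14P, and both stayed called.

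RARA, the alpha receptor for retinoic acid (probe set 13673251), moved the other way and by less. Its E2 signals were 6.46, 6.59, 6.36, 6.59 and 6.57. At E+1P they were 6.41, 6.08, 6.10, 5.80 and 6.13. Replicate 1 of E+1P lay within the range of E2 and the other 4 arrays below it. At E+3P the signals were 6.15, 6.15, 6.05, 6.15 and 5.94, at E+7P 6.23, 6.25, 6.10, 6.004 and 6.24, and at E+14P 6.26, 6.05, 5.92, 6.002 and 6.15. None of these later arrays reached the lowest E2 array.

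RARA fell from 6.52 ± 0.10 in E2 to 6.10 ± 0.21 at E+1P, by 0.41 (SE 0.098, adjusted p = 0.0242, limma), which is a 1.33-fold lower signal. It was lower by -0.43 at E+3P (adjusted p = 0.00926), -0.35 at E+7P (adjusted p = 0.0443) and -0.44 at E+14P (adjusted p = 0.0121). Called lower were 0.929% of all probe sets at E+1P, 5.34% at E+3P, 2.36% at E+7P and 2.29% at E+14P, and 2.42% lay wholly below E2 at E+1P and 3.03% at E+3P. Among the progesterone times the RARA means lay between 6.08 and 6.17, and every difference between them had an interval within -0.29 to 0.28. The E+1P call was lost without E2 replicate 2, 4 or 5 or E+1P replicate 2 or 4 (highest adjusted p = 0.0828). The E+7P call was lost without any 1 E+7P array, without E2 replicate 1, 2, 4 or 5, E+1P replicate 2, 3 or 5, E+3P replicate 1 or E+14P replicate 2 or 4 (changes from -0.39 to -0.31, highest adjusted p = 0.115), and with only the compared groups in the model E+1P (0.0842), E+3P (0.0545) and E+7P (0.0586) were not called. With 3 makeup covariates the changes were -0.40 at E+3P (adjusted p = 0.0752) and -0.35 at E+7P (0.058), about as large but not called.

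None of the other retinoid receptors measured was called lower than in E2. RARB, the beta receptor and a target of retinoic acid, had E2 signals of 6.26, 5.95, 6.82, 5.96 and 5.96 and E+14P signals of 7.20, 7.61, 7.38, 8.25 and 7.59, with no overlap. It was higher than in E2 by 1.19 at E+3P (SE 0.23, adjusted p = 0.00308), 1.36 at E+7P (adjusted p = 0.00138) and 1.42 at E+14P (adjusted p = 0.00102), with all 5 arrays above every E2 array each time. Of all probe sets, 5.07%, 1.83% and 1.48% were called higher at these times, and 3.94%, 3.47% and 2.55% lay wholly above E2. At E+1P RARB was 0.84 higher (95% interval 0.36 to 1.31), just outside the threshold (adjusted p = 0.0549). Leaving out E2 replicate 3, E+3P replicate 3 or 5 or E+14P replicate 4 gave a call (0.99 without E2 replicate 3, lowest adjusted p = 0.0169). It was also called with array weights, a smooth muscle covariate, fewer probe sets or only the compared groups in the model. The 3 later RARB calls held when any 1 array was left out. RARG, the gamma receptor, differed from E2 by 0.04 to 0.34 (lowest adjusted p = 0.0827 at E+3P). RXRB, a partner receptor, differed by 0.22 to 0.36 (lowest adjusted p = 0.149), and RXRG by -0.14 to 0.24. RXRA was not analysed here.

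**Figure D4:**
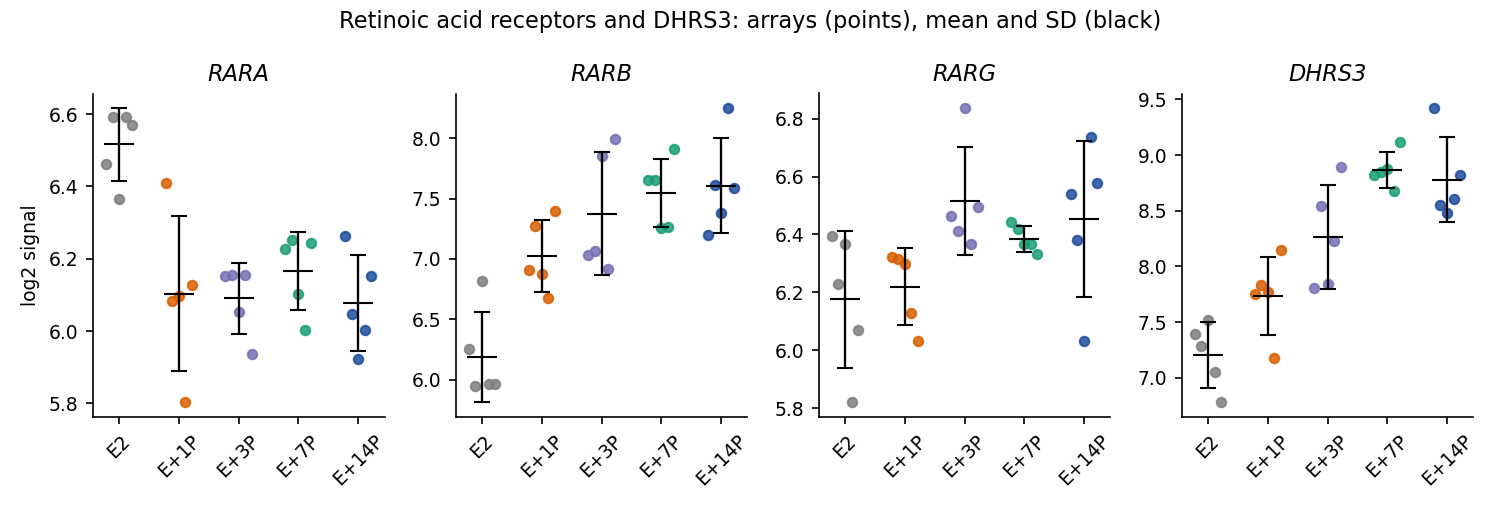
Log2 signal of RARA, RARB, RARG and DHRS3 in each array (points), with group mean and SD in black. RARA lies lower in the progesterone groups (means 6.08 to 6.17 against 6.52 in E2), while RARB climbs from 6.19 to 7.61 and DHRS3 from 7.21 to 8.87.

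In the list of receptors and coregulators, to which RARA belongs, 12 of 17 genes were measured. At E+1P, where 2.32% of all probe sets were called, RARA was the only called member, but not with only E+1P and E2 in the model. At E+3P 3 rose and 2 fell, at E+7P again 3 and 2, and at E+14P 2 and 2, with RARA among those that fell each time. Of all probe sets 10.4%, 4.19% and 3.77% were called at these times. The list's median change was 0.06, 0.24, 0.22 and 0.24 at the 4 times, beside 0.01, 0.05, 0.03 and 0.03 over all probe sets. NRIP1 is a corepressor that binds hormone-bound nuclear receptors. It was at -0.51 at E+1P (adjusted p = 0.104), with all 5 arrays below E2 against 2.42% of all probe sets. This was called with array weights (0.0169), with only the compared groups in the model (0.00303) and without the arrays that stand apart (0.0333). NRIP1 fell by 1.02 at E+3P (SE 0.16, adjusted p = 0.000503), by 0.65 at E+7P (adjusted p = 0.0204) and by 0.73 at E+14P (adjusted p = 0.0104). The E+7P call of NRIP1 was lost without E2 replicate 1 or 4 or E+7P replicate 3 (highest adjusted p = 0.0536). The coactivator CREBBP rose by 0.49 at E+7P (SE 0.093, adjusted p = 0.00337), and its E+14P value of 0.35 (adjusted p = 0.0335) lost the call without E2 replicate 2, 3, 4 or 5 or E+14P replicate 2, 3 or 4 (highest adjusted p = 0.0817), with median centring (0.0552) and with a smooth muscle covariate (0.0685). NCOA3, another coactivator, rose by 0.39 at E+3P (adjusted p = 0.0177), but not with only those groups in the model (0.114), with 3 makeup covariates (0.0848), without the arrays that stand apart (0.0526) or without E2 replicate 4 (0.0518). The acetyltransferase gene EP300, which falls outside the rule for named genes and was picked after its values were seen, accounted for the other call at E+3P and E+7P (0.25, adjusted p = 0.044, and 0.33, adjusted p = 0.0177). The alternatives were not run for EP300.

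ALDH1A3 was the one called enzyme of the synthesis and storage list at E+1P (18 of 29 measured). At E+3P and at E+14P 2 rose and 2 fell, and at E+7P 2 rose and 1 fell, with list medians between -0.03 and 0.06. Over all probe sets 2.32% were called at E+1P, 10.4% at E+3P, 3.77% at E+14P and 4.19% at E+7P. The other gene that rose was DHRS3, the reductase that returns retinaldehyde to retinol. DHRS3 signals were 7.39, 7.28, 7.52, 7.05 and 6.78 in E2 and 8.82, 8.84, 8.88, 8.68 and 9.12 at E+7P. It was 0.53 above E2 at E+1P (95% interval 0.10 to 0.96, adjusted p = 0.23), and higher by 1.06 at E+3P (SE 0.21, adjusted p = 0.00349), by 1.66 at E+7P (adjusted p = 0.000103) and by 1.57 at E+14P (adjusted p = 0.000164). E+7P and E+14P also exceeded E+1P, by 1.13 (adjusted p = 0.00331) and 1.04 (adjusted p = 0.00555), where 0.931% and 1.21% of all probe sets were called higher. DHRS3 thus rose between E+1P and E+7P, while no rise of ALDH1A3 or AOX1 after E+1P was called. The RARB and DHRS3 calls against E2 at E+3P, E+7P and E+14P held under the alternatives tried, which were not run for DHRS3 between progesterone times.

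RDH10, which makes the retinaldehyde that ALDH1A3 uses, was 7.44 ± 0.63 in E2 and 6.83 ± 0.18 at E+1P, a difference of -0.61 (95% interval -1.04 to -0.17) that was not called (adjusted p = 0.157). It was called without E2 replicate 3 (-0.85, adjusted p = 0.00463) and with array weights (-0.70, 0.0237). From E+1P it rose by 0.77 to E+3P (adjusted p = 0.0377, with 1.41% of probe sets called higher), by 0.80 to E+7P (adjusted p = 0.0436) and by 0.96 to E+14P (adjusted p = 0.0115). The alternatives were not run for RDH10 between progesterone times. E+14P minus E2 was 0.35 (95% interval -0.08 to 0.79), which was not called (adjusted p = 0.418). The alcohol dehydrogenase gene ADH5 fell by 0.59 at E+3P (SE 0.12, adjusted p = 0.00368), by 0.72 at E+7P (adjusted p = 0.000965) and by 1.06 at E+14P (adjusted p = 5.09e-05), and the E+3P fall was not called with only E+3P and E2 in the model (0.0716). ADH7, an alcohol dehydrogenase active on retinol, was lower at E+3P (-1.76, adjusted p = 0.0252) and E+14P (-1.78, adjusted p = 0.0418). Neither ADH7 call held with a smooth muscle covariate (-1.36, adjusted p = 0.107, and -1.51, 0.093), with the arrays that stand apart left out (0.0674 and 0.0501) or with only the compared groups in the model (0.123 and 0.0803). The E+3P call was also lost with 3 makeup covariates (-1.34, 0.137). Of 20 columnar epithelium markers, 5 were called lower and 1 higher at E+3P, with a median change of -0.92. At E+14P 3 were called lower and 0 higher, with a median of -0.39. Of all probe sets, 5.34% were called lower and 5.07% higher at E+3P, and 2.29% and 1.48% at E+14P. The part of tissue makeup in the ADH7 values was not tested. Among single arrays, the E+3P call was lost without E2 replicate 1, 2 or 4 or E+3P replicate 2 or 4 (highest adjusted p = 0.0801). The E+14P call was lost without E2 replicate 1, 2 or 4, E+1P replicate 2, E+7P replicate 1 or 4 or E+14P replicate 1, 2 or 4 (highest adjusted p = 0.115). ALDH1A2, the other measured retinaldehyde dehydrogenase, differed from E2 by 0.19 to 0.63 (lowest adjusted p = 0.335, interval -0.04 to 1.30 at E+14P), and ALDH1A1 was not analysed here.

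STRA6 was also the only called gene of the uptake and carrier list (12 of 16 measured), higher at E+1P and lower at E+7P. Of all probe sets 2.32% were called at E+1P and 4.19% at E+7P, so nothing particular to the list is read from this count. RBP4, the blood carrier that STRA6 binds, had group means of 4.28 to 5.93 and no call, with 9.50 in E+3P replicate 2, an array that stands apart. The carrier CRABP2, which delivers retinoic acid to its receptors, varied widely within groups and had no call. It reached 10.20 in E+3P replicate 3, where the squamous epithelium mean was 10.32, the highest of all arrays. In E2 replicate 3 CRABP2 stood at 8.33, with a squamous mean of 4.60, the lowest of all arrays. A tie of CRABP2 to squamous epithelium was not tested. In the breakdown list 0 of 3 measured genes were called against E2 in limma. At E+3P and E+7P 1 of the 3 had an unadjusted limma p under 0.05, as had 11035 and 6932 of all 40489 probe sets. CYP26A1 differed from E2 by 0.05 to 0.29 (95% intervals between -0.21 and 0.55) at a low E2 signal of 4.12, and CYP26B1 by -0.25 to 0.20.

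AOX1 shared its list with other molybdenum enzymes and the genes that build their cofactor (7 of 10 measured). GPHN, gephyrin, which inserts molybdenum into the cofactor and also anchors receptors at synapses, rose by 1.05 at E+1P (SE 0.24, adjusted p = 0.0197), from 7.65 ± 0.21 to 8.70 ± 0.05 with all 5 arrays above E2. Of all probe sets, 1.39% were called higher and 3.1% lay wholly above E2 at E+1P. GPHN was back at 7.78 ± 0.27 at E+14P, lower than at E+1P by -0.92 (adjusted p = 0.0366). MOCS2, an enzyme of an earlier cofactor step, was lower at E+3P, E+7P and E+14P than at E+1P (-0.42, -0.45 and -0.42, adjusted p = 0.0267, 0.0215 and 0.0266), and was picked after its values were seen. The alternatives were not run for MOCS2, nor for GPHN between progesterone times. At E+3P GPHN was 0.25 above E2 (95% interval -0.25 to 0.76, adjusted p = 0.531), with a wide SD of 0.82. With 3 makeup covariates its E+3P change was 0.89 and called (adjusted p = 0.0112), as it was without the arrays that stand apart (0.74, 0.0347). In the comparisons with E2, AOX1 was called at all 4 times and no other gene of the list after E+1P, apart from GPHN under those alternatives. XDH, the related xanthine dehydrogenase, had no call.

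The list of known retinoic acid targets (20 of 30 measured), which holds STRA6 and RARA, had 1 higher and 1 lower call at E+1P, namely these genes. At E+3P and at E+14P 3 were higher and 1 lower, and at E+7P 3 were higher and 2 lower. The higher genes at the 3 later times were RARB, DHRS3 and ETS1, a transcription factor. ETS1 was higher by 0.58 at E+3P (adjusted p = 0.0203), 0.57 at E+7P (adjusted p = 0.0391) and 0.63 at E+14P (adjusted p = 0.022), and none of these was called with only the compared groups in the model (0.139, 0.0691 and 0.0807). The ETS1 calls were also lost without E2 replicate 1 or 3 at each time, without E2 replicate 4 or E+7P replicate 1, 3, 4 or 5 at E+7P, without E+3P replicate 2 or 3 at E+3P, and without E+14P replicate 4 at E+14P (highest adjusted p = 0.102). At E+3P ETS1 was 0.36 with the arrays that stand apart left out (adjusted p = 0.167), 0.41 with 3 makeup covariates (0.165) and 0.48 with array weights (0.0534), none of them called, and at E+7P it was not called with median centring (0.52, 0.0672). The list medians were 0.13, 0.17, 0.04 and 0.12. Over all 6 lists without the 4 genes chosen here, 61 genes were measured, and 1 rose and 0 fell at E+1P, 5 and 3 at E+3P, 5 and 2 at E+7P, and 4 and 3 at E+14P. So 1, 8, 7 and 7 of the 61 were called, beside 2.32%, 10.4%, 4.19% and 3.77% of all probe sets. Those probe sets include 23979 without a gene symbol. Among the 15534 genes with 1 symbol, a closer background for the lists, 324 rose and 228 fell at E+1P and 782 and 1113 at E+3P. The same counts were 353 and 556 at E+7P and 351 and 549 at E+14P. Nothing particular to the lists is read from these counts. RARRES1, a retinoic acid target named after its values were seen, differed from E2 by -1.95 at E+1P, with all 5 arrays below E2, but its adjusted p was 0.0733. Of all probe sets, 2.42% lay wholly below E2 at E+1P.

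**Figure D5:**
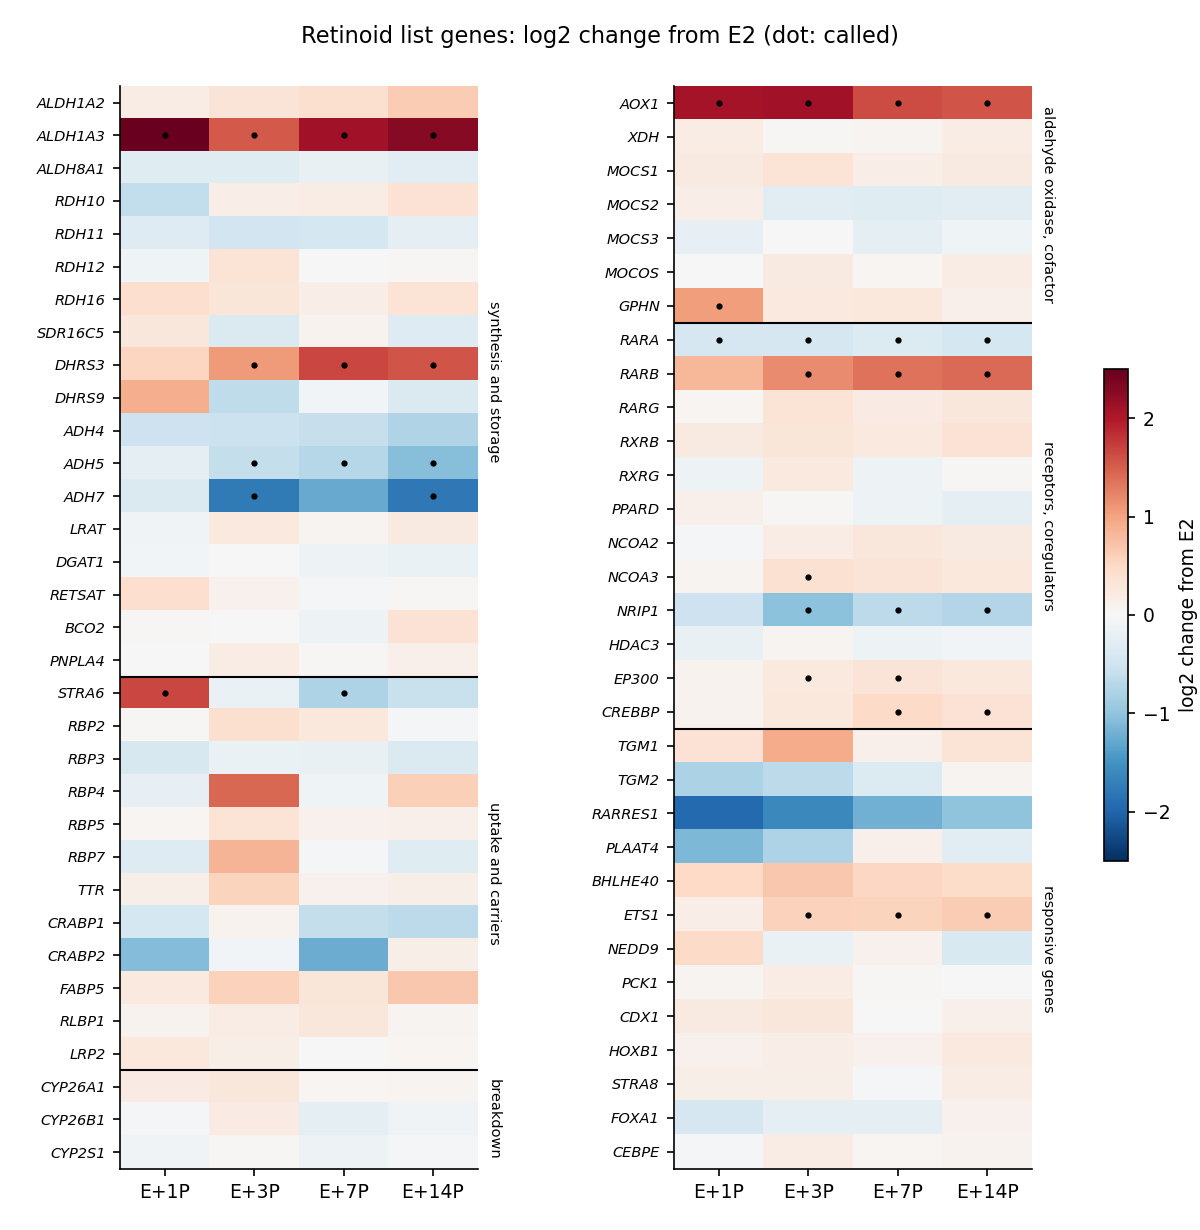
Log2 change from estradiol alone of all measured genes of the retinoid lists at each progesterone time, 1 row per gene with the lists set apart by black lines, red higher and blue lower, and a dot where the change was called. RARB and DHRS3 reach 1.42 and 1.66 at the later times, whereas GPHN is called at E+1P (1.05) and ADH5 falls to -1.06 at E+14P.

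For each of the 4 genes the likest transcripts were sought among 9169 genes of at least median signal, by Pearson's r over the 25 arrays. The value in brackets is r after the group means were taken off, and the arrays share their groups, tissue makeup and normalization. ALDH1A3 was most like PDPN, podoplanin, at r = 0.934 (0.853), followed by RIN2 at 0.871 (0.591), OTULINL at 0.866 (0.614) and BACH1 at 0.864 (0.713). STRA6 was most like MFSD2A, a lipid transporter, at 0.923 (0.542), SEC14L2 at 0.918 (0.508), LOC713693 at 0.910 (0.695) and SORT1, a sorting receptor, at 0.907 (0.629). For RARA the likest were PSMC4, a proteasome subunit, at 0.845 (0.565), SPRY4 at 0.825 (0.509), SRPX2 at 0.820 (0.499) and MRPL14 at 0.799 (0.461). AOX1 was most like DEPP1 at 0.843 (0.653), PTPRM at 0.812 (0.715), the progestin target FKBP5 at 0.795 (0.287) and ANHX at 0.788 (0.454). Of these, PDPN kept the highest r with its partner within groups, and FKBP5 the lowest.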

How the data were processed

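The deposited table holds the authors' log2 signals for 40489 probe sets on 25 arrays. Affymetrix Expression Console is named in the submitters' processing notes. Its version is not given in the sources used here, nor is the summarization or normalization. After sorting, no array departed from the mean of all arrays by more than 0.29. Signal over background is not known per probe set. By the platform annotation, 16020 probe sets have 1 gene symbol, 490 several and 23979 none, and a gene was read from its probe set with the highest mean. Genome positions and sequences were not used here.

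Each array is 1 animal, numbered 1 to 5 within its group in accession order, and the numbers pair no animals. Limma 3.58.1 in R 4.3.3 was fitted with 1 coefficient per group on all 25 arrays (20 residual degrees of freedom), with a mean trend of the variances. The p values thus rest on a spread pooled over the groups, are 2-sided, and were adjusted with the Benjamini-Hochberg method within each of 10 comparisons, over 40489 tests, with a threshold of 0.05. A value after ± is an SD. The fits were tested on simulated data.

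The 4 genes, the 6 retinoid lists (65 of 98 entries measured, some in more than 1 list) and the marker lists were chosen with earlier results of these data known. Named were the 4 genes, up to 4 called genes per list and comparison with E2, a fixed set of receptors, carriers and enzymes, the hormone check genes and the 4 transcripts most like each gene. The alternatives were quantile normalization, median centring, a filter at the 40th percentile of mean signal, no mean trend, array weights, only the compared groups in the model, a single probe set for each gene, makeup covariates, leaving out arrays, and an exact permutation test.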

Additional observations from a re-analysis of the deposited data

Results flagged for a closer look

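In 125 sets of 5 arrays, 1 gene in 1 group each, the highest or lowest array was checked for a gap to its nearest neighbour of more than 0.71 of the group's whole range. Chance gives such a gap in about 1 of 20 sets, and 7 of the 125 had one. Among the 4 genes of the report there was 1 case, AOX1 in E+7P replicate 4 at 8.51, with the next array at 7.07 and the lowest at 6.51. Without this array the E+7P change of AOX1 was 1.29 and still called. RARG stood at 6.84 in E+3P replicate 3 (next 6.49), and CRABP2 at 10.20 in the same array (next 5.83). CRABP2 was also high in E2 replicate 3, at 8.33 (next 6.37). On the low side were RXRG in E+14P replicate 3 at 3.04 (next 3.60), CYP26A1 in E2 replicate 3 at 3.92 (next 4.14) and FKBP5 in E+1P replicate 5 at 7.87 (next 8.06), and the FKBP5 call at E+1P held when any 1 array was left out.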

How the results depend on the processing

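No paired analysis was possible because each group holds other animals and the replicate numbers come from accession order alone. No called change of the 4 genes turned its direction under any alternative tried. The STRA6 call at E+7P was lost without a mean trend (-0.77), with a squamous covariate (-0.78) and with 3 makeup covariates (-0.65), and an exact permutation test of E+14P against E2 gave STRA6 p = 0.00794 for -0.56, the smallest p this test can give and not adjusted. With only the compared groups in the model, the calls of ALDH1A3 at E+3P (1.53) and of RARA at E+1P (-0.41), E+3P (-0.43) and E+7P (-0.35) were lost. Such a fit holds fewer arrays, and why the calls were lost was not tested. RARA was also not called with 3 makeup covariates at E+3P (-0.40) and E+7P (-0.35), or at E+7P with the arrays that stand apart left out (-0.35). Leaving out each array in turn gave RARA changes of -0.49 to -0.34 at E+1P and -0.39 to -0.31 at E+7P, STRA6 changes of -0.82 to -0.70 at E+7P, and AOX1 changes of 1.29 to 1.79 at E+7P and 1.30 to 1.71 at E+14P.

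Counts over the whole array moved more. With array weights 1986 probe sets were called at E+1P (938 without) and 2832 at E+7P (1695), 2046 for E+7P minus E+1P (996) and 2176 for E+14P minus E+1P (1305), and 11 retinoid list genes at E+1P (5). With only the compared groups the counts were 825 at E+3P (4214 with all groups), 924 at E+14P (1528), 369 for E+3P minus E+1P (1790) and 1754 for E+7P minus E+1P, with 8 retinoid list genes at E+1P and 4 at E+3P (11). A single probe set for each gene, and so fewer tests, gave 2247 at E+3P and 1116 at E+7P. A smooth muscle covariate gave 2787 at E+3P, 415 for E+3P minus E+1P, 734 for E+14P minus E+1P and 4 for E+14P minus E+3P (0). With 3 makeup covariates there were 1424 at E+1P, 1795 at E+3P, 342 for E+3P minus E+1P and 7 retinoid list genes at E+3P. Leaving out the arrays that stand apart gave 1891 at E+3P, 515 for E+3P minus E+1P and 8 retinoid list genes at E+1P. For E+7P minus E+3P (2) the count was 1 with quantile normalization or no mean trend, 4 with the 40th percentile filter, and 0 with array weights, the compared groups, each set of makeup covariates and the arrays that stand apart left out. Leaving out each array gave 2592 to 5114 probe sets at E+3P (fewest without E+3P replicate 2), 1008 to 1946 at E+7P, 862 to 1781 at E+14P, 842 to 3665 for E+3P minus E+1P, 559 to 1217 for E+7P minus E+1P, 777 to 1617 for E+14P minus E+1P, 0 to 65 for E+7P minus E+3P and 0 to 23 for E+14P minus E+3P, with 4 to 8 retinoid list genes at E+1P and 6 to 12 at E+7P. The cause of these shifts in the counts was not tested. Signal over background is unknown, which limits what low signals such as those of CYP26A1 and RXRG can show.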
